A study of Mus musculus with 10 samples.

Results

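The genes described here are 10 genes of apical polarity and of the adherens junction: *Crb2*, *Prom1*, *Ezr*, *Pard3*, *Pard3b*, *Pard6b*, *Prkci*, *Llgl1*, *Tjp1* and *Afdn*. They were chosen by symbol from a list of names, without a threshold on their values, and all 10 were found among the 14300 genes of the table. The list was drawn up with earlier results of these data known. Their expression was compared in cells sorted from embryonic mouse brain, between the TdTomato+ and TdTomato− populations of the same mouse number. Of the 10 genes, 8 were lower in TdTomato+ cells, 1 was slightly higher and 1 did not pass the test, where 39.4% of all genes were lower and 37.9% were higher. Coordinates are those of GENCODE on GRCm38, and values count reads over the exons of each gene. *Crb2*, *Pard3b*, *Ezr*, *Prom1* and *Pard3* were left at means of 6.90% to 13.6% of their TdTomato− level, while *Prkci* and *Afdn* stood at 109% each.

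The 10 libraries came from 5 mouse numbers (2 to 6) of the *Grem1creERT; Rosa26LSLTdtomato* line, on a c57bl/6j background, each with 1 library of either population. In this line a tamoxifen-inducible Cre under *Grem1* regulatory sequence switches on TdTomato, so that cells with an active *Grem1* reporter and their progeny turn red, and both populations carried the same alleles and received the same tamoxifen. Embryos were collected 24 h after tamoxifen, at 14.5 dpc, and live cells were sorted by colour, which leaves every unlabelled cell type of the dissected tissue in TdTomato−. The methods of the study name the dorsal telencephalon with meninges removed and the labels name brain, and the number of embryos behind a mouse number is not given in the sources used here.

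An apical membrane and a ring of adherens junctions beneath it mark the ventricular end of radial glia, the dividing stem cells of the embryonic cortex. The Crumbs and PAR protein complexes define this apical domain, the Lgl protein opposes them from the lateral side, and afadin and ZO proteins tie junction receptors to actin. Newborn neurons lose the apical attachment when they leave the ventricular surface, although several PAR proteins are used again in neurites and axons.

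The sort and the populations were checked first. *Grem1*, which drives the reporter, was at 6.11 ± 0.731 CPM (reads of a gene scaled to the size of its library, with TMM factors) in TdTomato− and 63.3 ± 3.10 CPM in TdTomato+ libraries (mean ± s.d., n = 5), a log2 fold change of 3.37. All 9 radial glia markers were lower in TdTomato+ cells, and their summed level fell from 1936 to 2343 CPM down to 137 to 193 CPM, with none at 0. All 6 cell cycle markers and all 6 markers of the GABAergic lineage were also lower, whereas 4 of 5 deep-layer neuron markers and all 5 newborn neuron markers were higher. Of the other cell types, 3 of 10 endothelial markers were in the table, and 1 was lower. Their sums were 2.61 to 4.44 CPM in TdTomato− and 1.72 to 3.13 CPM in TdTomato+. The 6 measured microglial markers, all lower, summed to 13.1 to 61.2 CPM in TdTomato− and 0.725 to 1.67 CPM in TdTomato+. The 5 measured erythroid markers were all lower in TdTomato+ cells, with sums of 74.2 to 258 CPM against 1.18 to 25.7 CPM. Of the 4 measured pericyte markers 3 were lower, and their sums were 11.5 to 18.8 CPM against 1.02 to 3.04 CPM. Sums of the 4 intermediate progenitor markers, all lower, were 639 to 823 CPM against 40.6 to 64.5 CPM. Meningeal and choroid plexus lists had 2 measured markers each. Of the meningeal ones 1 was lower, with sums of 1.88 to 5.29 CPM against 0.564 to 1.09 CPM. Both choroid plexus markers were lower, with sums of 10.5 to 17.0 CPM against 0.407 to 3.36 CPM. These marker levels moved with the comparison, and their part in the results below was not tested. In bulk libraries, fewer cells of a type and less RNA per cell cannot be told apart.

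The sequence upstream of the start site is shown for 3 genes that span the range of outcomes: *Crb2* with the largest fall, *Prom1* with a fall of nearly the same size in every mouse, and *Prkci*, which hardly moved. Each line gives the 250 bases before the RefSeq start on GRCm38.p6, read towards the gene, and for *Prom1* the upstream of its 2 listed starts was taken. For *Prom1* and *Prkci* the RefSeq start lies downstream of the GENCODE start. By the GENCODE coordinates given below, the *Prom1* stretch therefore lies within the gene and the *Prkci* stretch runs past its start.
Crb2, chr2:37775999-37776248, plus strand: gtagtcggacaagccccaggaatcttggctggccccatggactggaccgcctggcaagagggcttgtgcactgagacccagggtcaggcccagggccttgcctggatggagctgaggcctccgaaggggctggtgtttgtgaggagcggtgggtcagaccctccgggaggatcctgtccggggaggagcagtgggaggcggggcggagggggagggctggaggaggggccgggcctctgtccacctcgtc
Prom1, chr5:44101737-44101986, minus strand: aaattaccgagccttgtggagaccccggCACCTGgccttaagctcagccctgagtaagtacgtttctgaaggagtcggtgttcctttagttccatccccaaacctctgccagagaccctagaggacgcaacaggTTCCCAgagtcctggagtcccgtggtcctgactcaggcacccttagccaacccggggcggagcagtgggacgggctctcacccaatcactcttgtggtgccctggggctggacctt
Prkci, chr3:30995521-30995770, plus strand: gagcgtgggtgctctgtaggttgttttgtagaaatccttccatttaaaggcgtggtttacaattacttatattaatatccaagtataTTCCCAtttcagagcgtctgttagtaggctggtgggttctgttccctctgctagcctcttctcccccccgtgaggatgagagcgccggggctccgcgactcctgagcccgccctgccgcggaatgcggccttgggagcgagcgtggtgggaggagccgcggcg
Capitals mark matches to 3 motifs searched on both strands: CAGGTG (the E-box of Snail and Zeb repressors), TGGGAA (the core bound by the Notch effector RBPJ) and CACGTG (the E-box of Hes and Myc proteins), so that a match on the other strand reads CACCTG or TTCCCA. In *Prom1* they start at bases 29 and 135, in *Prkci* at base 88, and the *Crb2* stretch holds none of these letters. Over the full windows of 300 bases, 3 of the 12 listed promoters of the 10 genes held CAGGTG, 4 held TGGGAA and 1 held CACGTG, against 20.2%, 25.6% and 7.15% of all 32851 promoters. These matches are descriptions of letters and not of binding.

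*Crb2* (ENSMUSG00000035403, chr2:37776249-37799103, plus strand) encodes a transmembrane protein of the Crumbs complex, which sets the size of the apical membrane. Its level in TdTomato− libraries was 42.8, 41.2, 37.5, 43.0 and 39.1 CPM in mice 2 to 6. In TdTomato+ libraries it was 2.22, 2.69, 3.49, 2.91 and 2.62 CPM in the same order. The populations lay far apart in every mouse, and *Crb2* fell by 3.87 on the log2 scale (SE 0.106, adjusted p = 4.81e-09), the largest fall of the 10 genes.

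*Prom1* (ENSMUSG00000029086, chr5:43993620-44102032, minus strand) encodes prominin, a cholesterol-binding protein of apical protrusions and of neural stem cell membranes. It stood at 54.3, 64.3, 62.5, 56.1 and 52.7 CPM in TdTomato− libraries of mice 2 to 6, and at 6.66, 7.68, 6.71, 7.65 and 6.24 CPM in TdTomato+ libraries. What remained was 10.7% to 13.6% of the TdTomato− level, a narrow band over the 5 mice. The fall was 3.05 on the log2 scale with an SE of 0.0622, and its adjusted p of 1.73e-09 was the lowest of the 10 genes.

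*Ezr* (ENSMUSG00000052397, chr17:6738041-6782784, minus strand) encodes ezrin, which links apical membrane proteins to cortical actin. Its level was 218, 179, 157, 255 and 256 CPM in TdTomato− libraries of mice 2 to 6, and 30.1, 10.8, 10.9, 30.3 and 40.4 CPM in TdTomato+ libraries. Mice 3 and 4 were lowest in both populations, and the populations did not overlap. *Ezr* fell by 3.25 on the log2 scale (SE 0.197, adjusted p = 5.07e-07). The share that remained was 6.03% and 6.96% in mice 3 and 4, and 11.9% to 15.8% in the other 3 mice. The summed microglial markers of TdTomato− cells were likewise lowest in mice 3 and 4, at 13.1 and 17.6 CPM against 45.2 to 61.2 CPM. So were the summed pericyte markers, at 13.0 and 11.5 CPM against 17.0 to 18.8 CPM, the erythroid markers, at 74.2 and 103 CPM against 109 to 258 CPM, and the radial glia markers by a small margin, at 2209 and 1936 CPM against 2215 to 2343 CPM. The summed GABAergic markers of TdTomato− cells were lowest there too, at 1276 and 1256 CPM against 1313 to 1638 CPM. Deep-layer and newborn neuron sums were instead highest in mice 3 and 4. They were 1592 and 1500 CPM against 1157 to 1377 CPM, and 5439 and 5731 CPM against 4953 to 5372 CPM. Meningeal sums were also highest there, at 2.90 and 5.29 CPM against 1.88 to 2.50 CPM. The other lists did not set both mice apart. The part of these marker sums in the *Ezr* level was not tested. Without mice 3 and 4, a comparison added after the data had been seen, the log2 fold change of *Ezr* was −2.86.

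**Figure D1:**
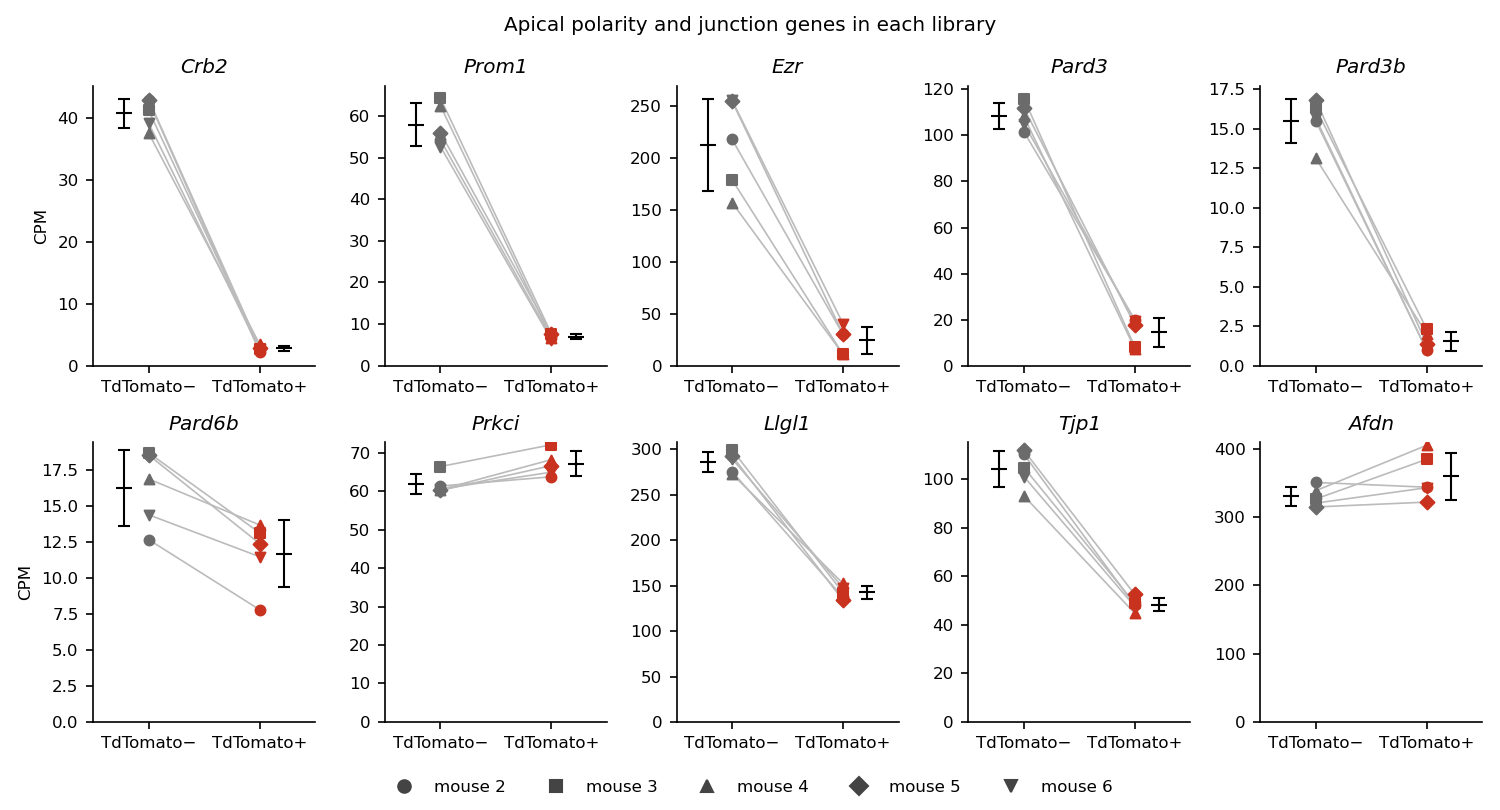
CPM of each gene (vertical axes, from 0) in the TdTomato− and TdTomato+ library of each mouse, joined by a line, with the mean ± s.d. of 5 libraries beside each population. *Crb2*, *Prom1*, *Ezr*, *Pard3* and *Pard3b* sit near the axis in TdTomato+ cells, while the lines of *Prkci* and *Afdn* are close to level.

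The PAR complex joins the scaffolds Par3 and Par6 to atypical protein kinase C. *Pard3* (ENSMUSG00000025812, chr8:127063893-127612286, plus strand) was at 102, 116, 108, 112 and 105 CPM in TdTomato− libraries of mice 2 to 6, and at 19.9, 8.15, 7.37, 17.7 and 19.4 CPM in TdTomato+ libraries. Its TdTomato− level was even, and the split among TdTomato+ libraries again set mice 3 and 4 below the others. The deep-layer marker *Foxp2*, named after its values were seen, was split alike in TdTomato+ libraries, at 30.3 and 24.5 CPM in mice 3 and 4 and 59.6 to 66.7 CPM in the others, and *Fezf2* was also lowest there, at 516 and 514 CPM against 579 to 682 CPM. The other 3 deep-layer markers, *Tbr1*, *Bcl11b* and *Sox5*, were highest in mice 3 and 4, and the sum of all 5 markers of that list was 5547 and 5296 CPM there against 4315 to 4813 CPM, while the microglial sums of TdTomato+ libraries were 0.911 and 0.927 CPM against 0.725 to 1.67 CPM. Erythroid sums of TdTomato+ libraries were highest in mice 3 and 4, at 8.72 and 25.7 CPM against 1.18 to 5.15 CPM. GABAergic sums were as well, at 62.0 and 61.5 CPM against 41.1 to 57.2 CPM. No list besides these and the deep-layer one set both mice apart in TdTomato+ libraries. The part of these markers in the *Ezr* and *Pard3* levels was not tested. The log2 fold change of *Pard3* was −2.98 (SE 0.238, adjusted p = 3.28e-06), or −2.48 without mice 3 and 4.

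*Pard3b* (ENSMUSG00000052062, chr1:61638824-62642284, plus strand), a relative of Par3, was at 15.5, 16.3, 13.2, 16.8 and 15.7 CPM in TdTomato− libraries and 0.997, 2.34, 2.03, 1.39 and 0.994 CPM in TdTomato+ libraries of mice 2 to 6. Here mice 3 and 4 had the highest TdTomato+ levels, the opposite order to *Pard3* and *Ezr*, on 22 to 54 reads per TdTomato+ library. *Pard3b* fell by 3.33 on the log2 scale (SE 0.202, adjusted p = 5.12e-07), and by 3.82 without mice 3 and 4.

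*Pard6b* (ENSMUSG00000044641, chr2:168081004-168101203, plus strand) encodes a Par6 adaptor that binds the kinase. Its levels were 12.7, 18.7, 16.9, 18.5 and 14.4 CPM in TdTomato− and 7.80, 13.1, 13.7, 12.4 and 11.5 CPM in TdTomato+ libraries of mice 2 to 6. The populations overlapped because mouse 2 was low in both, but within each mouse TdTomato+ was lower, at 61.6% to 81.1% of TdTomato−. The fall of 0.48 on the log2 scale (SE 0.0806) passed the test with an adjusted p of 0.000481.

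*Prkci* (ENSMUSG00000037643, chr3:30995747-31052959, plus strand) encodes the atypical kinase PKC iota, the catalytic part of the complex. It was at 61.4, 66.5, 60.4, 60.2 and 60.6 CPM in TdTomato− libraries and at 63.8, 72.1, 68.3, 66.7 and 65.0 CPM in TdTomato+ libraries of mice 2 to 6. TdTomato+ was higher in each of the 5 mice by a small step, and the populations overlapped. The log2 fold change of 0.12 (SE 0.0418) had an adjusted p of 0.0263, and without mouse 3, 4 or 5 the adjusted p was 0.0697, 0.0814 or 0.0671. Over all alternatives it ranged from 0.0227 to 1, so the call for *Prkci* depended on the libraries and tool used.

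*Llgl1* (ENSMUSG00000020536, chr11:60699723-60714186, plus strand) encodes a lateral polarity protein that is held off the apical domain by atypical kinase. Its level was 275, 299.6, 273, 293 and 289.6 CPM in TdTomato− libraries and 137, 142, 152, 134 and 148 CPM in TdTomato+ libraries of mice 2 to 6. TdTomato+ cells kept 45.7% to 55.8% of the TdTomato− level in each mouse, with no overlap. The log2 fold change was −1.01 (SE 0.0479, adjusted p = 1.04e-07).

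*Tjp1* (ENSMUSG00000030516, chr7:65296165-65527781, minus strand) encodes ZO-1, which ties junction receptors to actin. It was at 110.2, 105, 93.0, 112 and 101 CPM in TdTomato− libraries and at 48.0, 48.8, 44.7, 52.4 and 47.5 CPM in TdTomato+ libraries of mice 2 to 6. The remaining share was 43.6% to 48.0%. *Tjp1* fell by 1.11 on the log2 scale (SE 0.0422, adjusted p = 2.61e-08).

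*Afdn* (ENSMUSG00000068036, chr17:13760539-13906150, plus strand) encodes afadin, which connects nectins to actin at the adherens junction. Its levels were 351, 326, 339, 315 and 320.4 CPM in TdTomato− and 344, 385, 405, 322 and 343 CPM in TdTomato+ libraries of mice 2 to 6. TdTomato+ was higher in 4 of 5 mice, most in mice 3 and 4, and lower in mouse 2. The log2 fold change of 0.12 (SE 0.0503) did not pass the test (adjusted p = 0.0543). It did without mouse 2 (adjusted p = 0.0211), and over all alternatives the adjusted p of *Afdn* was 0.0211 to 1. Without mice 3 and 4 the log2 fold change was 0.03.

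**Figure D2:**
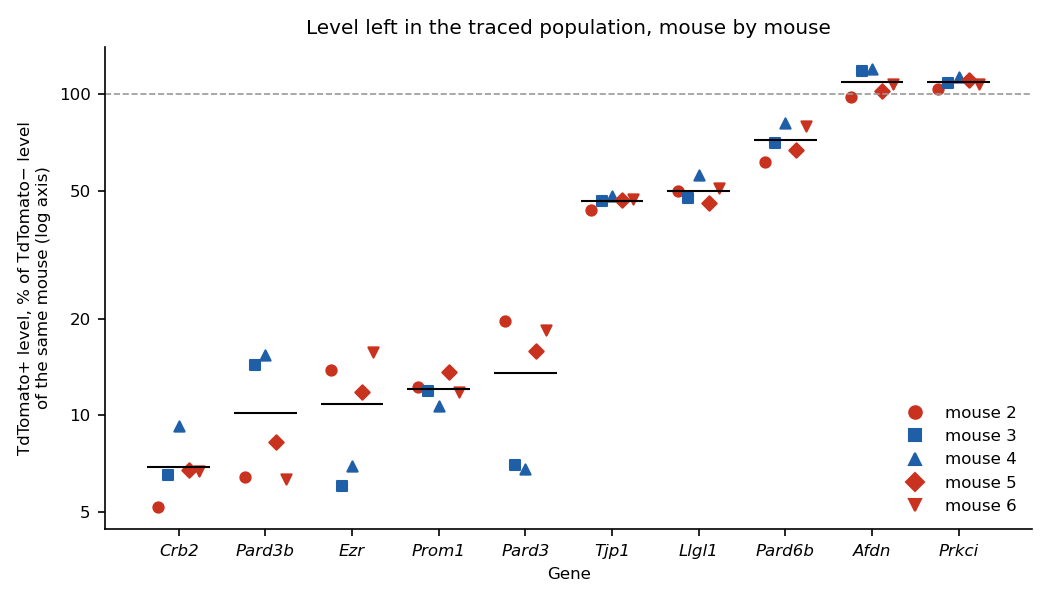
Level in TdTomato+ cells as a percentage of the TdTomato− level of the same mouse (log axis), for each gene and mouse, with the mean as a bar and mice 3 and 4 in blue. *Ezr* and *Pard3* are lowest in mice 3 and 4, *Pard3b* is highest in them, and *Tjp1* and *Prom1* hold together.

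The fold changes thus fell into separate ranges. The 5 genes past both thresholds, an adjusted p of 0.05 or less and a log2 fold change of 2 or more in size, lay between −3.87 and −2.98, and *Tjp1*, *Llgl1* and *Pard6b* lay between −1.11 and −0.48. Because the populations differed widely, these counts need their background. Of all 14300 genes, 77.3% passed the test in either direction, against 9 of the 10 genes here. Of all genes 39.4% were lower, against 8 of 10, and 37.9% were higher, against *Prkci* alone. Past both thresholds, 9.74% of all genes were lower, against 5 of 10, and 3.2% were higher, against none here. The populations did not overlap for 61.6% of all genes and for 7 of these 10. The median log2 fold change was −2.04 over the 10 genes and −0.01 over all genes. Because the 10 genes were chosen with earlier results of these data known, these differences from all genes are descriptions and not a test.

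Levels of different genes were compared per kilobase of exonic length. In TdTomato− cells *Ezr* and *Llgl1* were highest, at 64.8 ± 13.48 and 58.8 ± 2.36 CPM per kb (s.d., n = 5), and their ranges overlapped. *Afdn* followed at 32.3 ± 1.42, then *Tjp1* and *Prkci*, whose ranges met, and *Pard3b* came last at 1.18 ± 0.107 CPM per kb. In TdTomato+ cells *Afdn* was first at 35.2 ± 3.33 and *Llgl1* next at 29.3 ± 1.55, with *Prkci* at 12.1 ± 0.585 CPM per kb. *Ezr* moved from the first to the fourth place, at 7.45 ± 3.99 CPM per kb, and overlapped *Prkci* above and *Tjp1* below. *Pard3* and *Prom1*, at 1.00 ± 0.430 and 0.974 ± 0.0898, could not be ordered, and *Crb2* and *Pard3b* were lowest, at 0.416 ± 0.0694 and 0.118 ± 0.0465 CPM per kb.

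Paralogs of the same family did not all move alike. *Prkcz*, the other atypical kinase gene, rose from 47.7 ± 4.47 to 112 ± 8.16 CPM (log2 fold change 1.24, SE 0.0616, adjusted p = 1.42e-07), whereas *Prkci* changed little. Counted per kilobase, *Prkci* made up 59.6% ± 3.19 of the pair in TdTomato− and 40.6% ± 2.82 in TdTomato+ cells, lower in 5 of 5 mice. A two-sided exact sign-flip test over 5 mice gave p = 0.0625, the smallest that 5 pairs allow, and 0.104 after adjustment over the 15 shares tested. No share in this family of tests could therefore pass 0.05.

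Among Par6 genes, *Pard6g* fell by 1.06 on the log2 scale (SE 0.0542, adjusted p = 1.70e-07), while *Pard6a* had a log2 fold change of 0.09 (adjusted p = 0.265). *Pard6g* made up 60.4% ± 1.67 of the family in TdTomato− and 43.7% ± 3.24 in TdTomato+ cells. The share of *Pard6a* was 25.4% ± 2.65 and 40.9% ± 5.45, higher in all 5 mice (exact sign-flip p = 0.0625 for both). *Pard6b* held 14.2% ± 1.37 and 15.3% ± 2.49 (exact p = 0.188).

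In the Crumbs pair, *Crb1* fell by 3.97 on the log2 scale (SE 0.188, adjusted p = 1.01e-07), close to *Crb2*, and *Crb2* made up 84.8% ± 3.04 and 86.1% ± 4.17 of the pair (exact p = 0.375). *Tjp3*, a paralog of *Tjp1*, had a log2 fold change of 0.10 (SE 0.0860, adjusted p = 0.296), with means of 9.36 ± 0.707 CPM without and 10.1 ± 0.737 CPM with the label.

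Of the ezrin, radixin and moesin genes, *Msn* had the largest fall and fell by 4.88 on the log2 scale (SE 0.130, adjusted p = 4.31e-09), and *Rdx* fell by 1.11 (SE 0.0394, adjusted p = 1.78e-08). *Rdx* made up 38.7% ± 5.87 of the family in TdTomato− and 74.9% ± 10.6 in TdTomato+ cells, and *Ezr* 50.4% ± 5.82 and 23.6% ± 10.9 (exact p = 0.0625 for both). The *Ezr* share in TdTomato+ cells was 11.7% and 12.4% in mice 3 and 4 and 28.03% to 35.7% in the other 3.

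For Par3 genes the mean share hid such a split. *Pard3b* made up 11.8% to 14.4% of the pair in TdTomato− libraries. In TdTomato+ libraries it was 24.1% and 23.3% in mice 3 and 4 and 5.23%, 7.96% and 5.34% in mice 2, 5 and 6, so its direction differed between mice (exact p = 1).

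**Figure D3:**
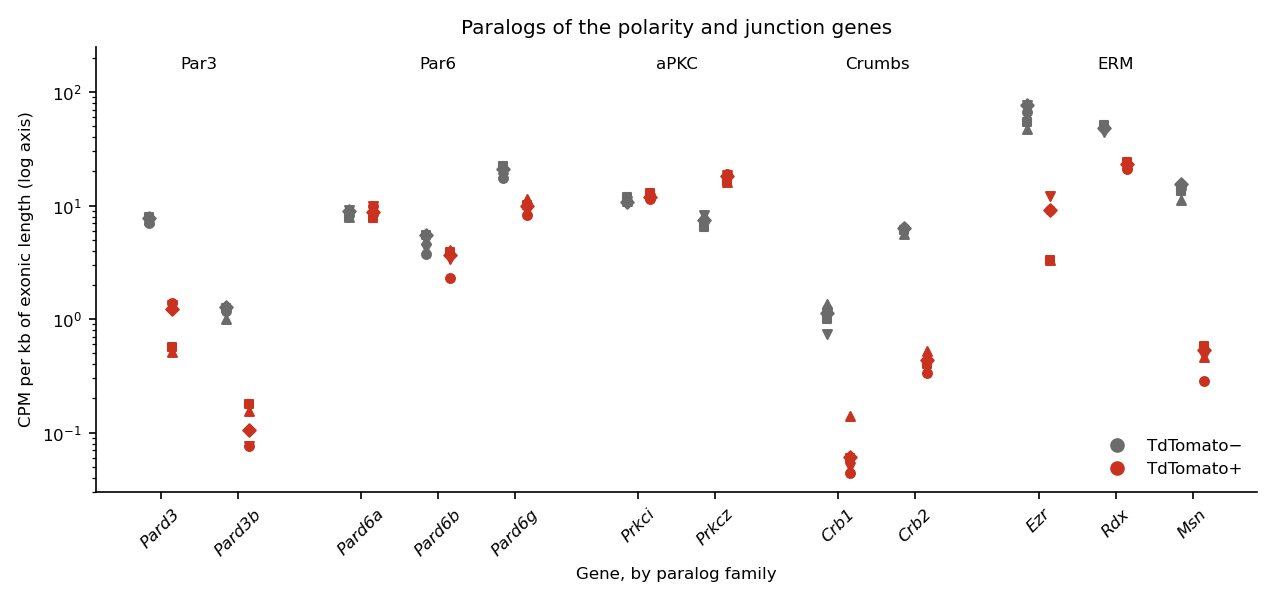
CPM per kilobase of exonic length (log axis) of genes and paralogs of 5 families in each TdTomato− (grey) and TdTomato+ (red) library, by family. *Prkcz* rises beside a level *Prkci*, *Pard6a* differs little between populations beside *Pard6g*, which is lower, and *Msn* drops further than *Rdx*.

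The other genes of these complexes were taken from 9 lists by role, 87 of which were in the table. Of the 87 genes, 42 were lower, 31 were higher and 14 did not pass the test, with a median log2 fold change of −0.05. Over all 14300 genes the shares were 39.4% lower and 37.9% higher, so these counts lie near the background, and the counts of the single lists below are to be read against the same shares. Of those named below, *Lin7b*, *Vcl* and *Shroom3* overlap antisense genes over 24.4%, 25.5% and 24.9% of their exonic length. *Ctnnb1* overlaps other genes over 15.1% of its length. None of the 10 main genes overlapped another gene over more than 5.91%. Past both thresholds, 18 of the 87 were lower and 2 were higher, where 9.74% and 3.2% of all genes were.

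In the PAR complex list, 2 of 7 genes were lower and 1 was higher. *Wwc1* (KIBRA, a scaffold that binds atypical kinase) fell by 1.06 (SE 0.108, adjusted p = 1.76e-05), and the Par6-binding GTPase *Cdc42* had a log2 fold change of 0.08 (adjusted p = 0.214). Of 9 measured Crumbs complex genes, 5 were lower and 3 were higher. *Epb41l5*, a FERM protein that binds Crumbs, fell by 2.05 (SE 0.0763) and *Mpp5*, the PALS1 scaffold, by 1.81 (SE 0.0842), whereas the adaptor *Lin7a* rose by 1.09 (SE 0.132). *Lin7c* rose by 0.26, and *Lin7b* rose by 1.02 but was low, at 0.573 ± 0.112 and 1.17 ± 0.314 CPM.

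In the Scribble and Dlg list, to which *Llgl1* relates, 2 of 10 genes were lower and 5 were higher. *Stk11*, a polarity kinase, and *Scrib*, the Scribble scaffold, fell by 0.57 and 0.51, while *Dlg2*, *Dlg4* and *Dlg3*, which encode scaffolds of neuronal synapses, rose by 1.66, 1.09 and 0.59.

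In the cadherin and catenin core, 3 of 9 genes were lower and 5 were higher. *Ctnna1*, the epithelial alpha-catenin, fell by 2.83 (SE 0.0602, adjusted p = 1.78e-09) and its neural paralog *Ctnna2* rose by 0.87 (SE 0.0417, adjusted p = 1.08e-07). *Vcl*, vinculin, fell by 3.18 and *Ctnnb1*, beta-catenin, by 1.15, while *Ctnnd2* and *Cdh4* rose by 1.23 and 0.58.

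Around afadin, 4 of 9 nectin list genes were lower and 5 were higher. *Plekha7*, an adherens junction protein of epithelia, fell by 3.85 (SE 0.101), *Nectin3* by 1.95 (SE 0.0700) and *Nectin1* by 0.91, while *Afdn* itself did not pass the test. *Lmo7*, an afadin-binding protein, rose by 2.61 (SE 0.151), from 14.95 ± 6.37 to 100.1 ± 60.2 CPM, and *Pvr* and *Camsap3* rose by 1.34 and 1.11.

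Of 13 measured ZO and tight junction genes, 9 were lower and 3 were higher. *Jam2*, a junctional adhesion molecule, fell by 5.14 (SE 0.238, adjusted p = 8.86e-08), from 51.6 ± 4.28 to 1.46 ± 0.733 CPM. *F11r* and *Cgnl1* fell by 3.34 and 3.12, from means of 1.14 and 1.18 CPM. The scaffold *Magi3*, *Cgn* and *Magi2* rose by 1.49, 1.48 and 0.50.

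Among ezrin partners, 6 of 10 genes of the list were lower and 3 were higher. *Slc9a3r1*, the EBP50 scaffold that binds ezrin, fell by 4.74 (SE 0.153, adjusted p = 1.04e-08), and *Cd44*, a receptor bound by ezrin, by 3.07 (SE 0.482). *Stk10*, a kinase of these proteins, *Slc9a3r2* and *Nf2* rose by 0.92, 0.64 and 0.38.

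In the list around prominin, 4 of 8 genes were lower and 3 were higher. *Celsr1*, *Fat1* and *Ttyh1* fell by 4.37, 4.02 and 2.21. *Fat4*, a giant protocadherin, rose by 2.13 (SE 0.0410, adjusted p = 1.53e-09), from 332 ± 13.51 to 1458 ± 82.7 CPM, the opposite direction to its relative *Fat1*, and *Arl13b* and *Cd24a* rose by 0.44 and 0.38. Of 12 apical actomyosin genes, 7 were lower and 3 were higher. *Myl9*, a myosin light chain, and *Shroom3*, which drives apical constriction, fell by 3.51 and 2.78, *Shroom2* fell by 1.18, and *Numbl*, *Rock1* and *Rock2* rose by 0.52, 0.52 and 0.30.

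**Figure D4:**
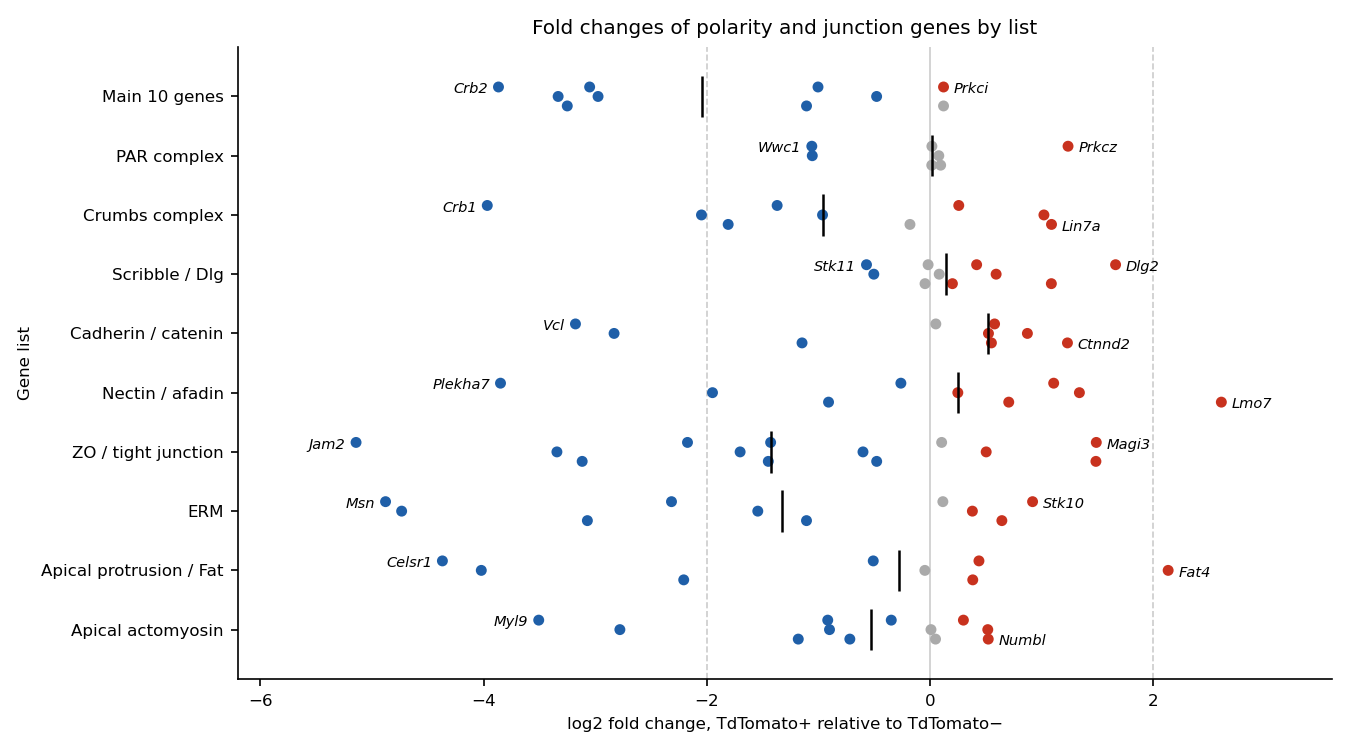
Log2 fold change of TdTomato+ relative to TdTomato− for each gene (one point each), with the median of each list as a black bar and dashed lines at 2 in either direction; blue points were lower, red points higher and grey points did not pass the test. Every list holds genes on both sides of 0, and the lowest and highest gene of each is named.

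For each of the 10 genes, the genes of the table with the most similar profile were found as the smallest Euclidean distance between log2 CPM values centred over the 10 libraries. Closest to *Crb2* were *Chd7*, *Cdca8* and *Csrp1*, and closest to *Prom1* were *Mastl*, *Mad2l1* and *Mcm6*, at distances of 0.30 to 0.40. *Ezr* and *Pard3* shared *Fzd9* as their nearest gene, at 0.78 and 0.70, and *Pard3* was also the third nearest to *Ezr*. *Pard3b* was nearest to *Myo1e* at 0.45. *Llgl1* was nearest to *Mapkapk2*, *Cdk4* and *Ube2s*, and *Tjp1* to *Hipk2*, each within 0.19. The 3 genes nearest to *Crb2* had log2 fold changes of −3.81, −3.80 and −3.84, and those nearest to *Prkci*, led by *Ube4a*, of 0.11 to 0.16.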

How the data were processed

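RNA-seq counts of 10 libraries were analysed, 5 of TdTomato+ and 5 of TdTomato− cells, paired by mouse number. The deposited values are raw counts per gene. The authors trimmed reads, aligned them to GRCm38 with STAR 2.4.2a and kept uniquely mapped reads; the labels describe a stranded poly-A kit, and the annotation release and strand column are not given in the sources used here, so overlapping genes are uncertain. Tamoxifen was given at 13.5 dpc. Total counts were 23429034 to 27286180 per library. The table holds genes with a fifth-largest CPM of at least 0.501, and all 14300 passed edgeR's filterByExpr. Symbols, coordinates and exonic lengths came from GENCODE on GRCm38; 29 genes had no symbol.

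Populations were compared in R 4.3.3 with edgeR 4.0.16 (TMM, glmQLFit, glmQLFTest, mouse number as a block), with Benjamini-Hochberg adjustment over 14300 genes. SE is the log2 fold change divided by the square root of F. Libraries were paired by number, and the study describes paired comparisons. The deviations of same-numbered libraries from their group means correlated at 0.186 to 0.316 across genes. Those of differently numbered libraries correlated at −0.312 to 0.212, which reaches above the 0.186 of mouse 5. These correlations alone therefore do not set every pair apart. No libraries of a population agreed within counting noise (chi-square per degree of freedom 4.46 to 32.0). Separate litters are not stated, so p-values measure the spread between these samples. Simulated counts with planted log2 changes of 1 and 3 (100 genes each) were called in 100%, and 15 of 14099 unchanged genes were called. The simulation gave every gene the same dispersion of 0.01 and held no differences between mice. Changes were planted only in genes above a limit on the mean count. These rates therefore do not carry over to genes with few reads or with levels that vary between mice. Paralog shares are counts per kb of exonic length, as a percentage of the family, with an exact sign-flip test in SciPy 1.17.1. Promoters are RefSeq entries on GRCm38.p6.

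The 10 genes and the gene lists were chosen with earlier results of these data known. Named besides them are their paralogs (1 gene that this rule covers is not reported here), up to 3 genes with the largest increase and 3 with the largest decrease that passed the test in each list, *Grem1*, and the most similar profiles; *Cdc42* was chosen after its values were seen. Alternatives were DESeq2 1.42.0, upper-quartile or RLE scaling, other count filters, no mouse block, TREAT, robust estimation, a prior count of 2, each mouse left out and, added after the data had been seen, mice 3 and 4 left out together.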

Additional observations from a re-analysis of the deposited data

Results flagged for a closer look

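Within the 5 libraries of a population, a library was picked out where its gap to the nearest other library took more of the range of log2 CPM than Dixon's 95% limit allows. This was applied to 194 groups of 5 libraries, 97 genes in each population, and picked out 10, where chance alone gives about 9.7. One of the 10 main genes was among them: *Prkci* in the TdTomato− library of mouse 3, at a log2 CPM of 6.06 against 5.91 to 5.94, with a gap of 0.807 of the range. Among paralogs, *Crb1* was high in the TdTomato+ library of mouse 4, at 1.08 against −0.48 to −0.07 (gap 0.738). A TdTomato− library stood apart downwards for 4 other list genes: *Lin7b* and *Slc9a3r2* in mouse 3 (gaps 0.775 and 0.899), *Ttyh1* in mouse 4 (0.756) and *Shroom2* in mouse 6 (0.831). In TdTomato+ libraries, *Epb41l4b* and *Dlg5* were low in mouse 6 (0.867 and 0.770), *Cgnl1* in mouse 2 (0.729) and *Rock1* in mouse 4 (0.733).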

How the results depend on the processing

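The 10 fold changes kept their sign under all 15 alternatives, and 6 also kept their side of the threshold. *Prkci* lost its call with upper-quartile normalization, DESeq2, TREAT and without mouse 3, 4, 5 or 3 and 4 together; *Pard6b* and *Llgl1* lost theirs with TREAT, and *Afdn* gained one with RLE, robust estimation and without mouse 2. The 5 genes past both thresholds numbered 5 under every alternative. TREAT against a log2 fold change of 1 tests a stricter question and called 3193 genes, against 11056, and 38 of the other pathway genes, of which 10 were higher, against 73 and 31. Without the replicate block, 10674 genes, 9 of the 10 main genes and 73 pathway genes were called. Leaving out each mouse gave 10409 to 10771 genes, 8 to 10 main genes and 73 to 74 pathway genes. The change in the share of *Pard3* within its pair, 0.42 percentage points, ran from −1.77 to 3.40 when 1 mouse was left out (−1.77, −1.04 and −1.67 without mouse 2, 5 or 6), and that of *Pard3b* from −3.40 to 1.77. The other 13 shares kept their sign when 1 mouse was left out and when counts were not divided by exonic length, but sizes moved. Without that division the change in share went from 14.9 to 8.82 percentage points for *Tjp3*. It went from −9.26 to −14.3 for *Msn* and from 1.19 to 3.16 for *Pard6b*. Without mouse 2 that of *Crb2* went from 1.28 to 0.494. Depth limits the low genes most: a count of 3, taken as the floor, corresponds to 0.104 to 0.136 CPM, for counting error only.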
